A study of Mus musculus with 2 samples.

Results

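The 14-3-3 proteins are the subject of this account, taken as the 7 mouse genes Ywhab, Ywhae, Ywhag, Ywhah, Ywhaq, Ywhaz and Sfn, which encode the beta, epsilon, gamma, eta, theta, zeta and sigma isotypes. They were found by symbol in a table of 45578 genes, and all 7 were present under their Ensembl identifiers. The transcript with the most footprints over both libraries stood for each gene. The libraries came from brain of mice at postnatal day 5, all of the genotype Smn+/-; SMN2tg/0, with 1 functional copy of mouse Smn and a hemizygous human SMN2 transgene, on a congenic FVB background. These animals are the controls of a spinal muscular atrophy strain, so both libraries share the reduced Smn dose and the transgene, and no wild-type, affected or treated sample was analysed here. RiboLace uses a puromycin analogue on beads to pull out ribosomes at work, and the fragments of 25 to 35 nucleotides protected by those ribosomes were sequenced. The labels name 2 biological replicates of 1 group and do not say whether either lysate held more than 1 brain. The difference between them is therefore a difference between 2 libraries and not an effect of a condition.

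14-3-3 proteins are small acidic adaptors that form homodimers and heterodimers. Each subunit holds a groove that binds a short motif around a phosphorylated serine or threonine, so that a dimer can clamp, hide or relocate its client. They are abundant in brain, where they were first isolated and where they act in neuronal migration, ion channel trafficking, transmitter synthesis and control of cell death. Epsilon binds phosphorylated Ndel1 during neuronal migration, while sigma, also called stratifin, is known as an epithelial protein that is induced by p53 and halts the cell cycle.

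Gene counts summed to 343552 in replicate 1 and 120282 in replicate 2, so that 1 count was worth 2.71 CPM (the normalised read count) in the first and 8.93 CPM in the second after scaling with trimmed means (TMM). The tissue label was checked on markers: 6 of 6 neuronal markers and 6 of 6 astrocyte and radial glia markers reached a mean of 10 counts. So did 6 of 6 oligodendrocyte lineage markers and 1 of 6 microglial markers. Haemoglobin genes and the erythroid gene Alas2 held 0.410% and 0.385% of the counts. Hba-a1 (343 and 121 counts) and Hba-a2 (362 and 120) had similar counts, as did Hbb-bs (351 and 108) and Hbb-bt (345 and 113). Fragments counted for both copies of a pair would raise this share, which was not tested. In a bulk lysate a gene made in few cells and a gene made at a low rate in many cannot be told apart.

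Ribosomes in this brain carried footprints of 6 of the 7 genes, and the seventh, Sfn, had none. The 6 genes together had 1802 counts in replicate 1 and 598 in replicate 2. Their share of gene counts was 0.525% in replicate 1 (0.501 to 0.549 by a 95% Wilson interval) and 0.497% in replicate 2 (0.459 to 0.539), a mean of 0.511% ± 0.019 (SD, n = 2). The intervals overlapped. Set against the counts of protein-coding genes alone, the family held 0.645% (0.616 to 0.675) and 0.680% (0.628 to 0.737). Intervals here and below hold counting error alone, since amplified reads carried no molecular identifiers and are not separate molecules.

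Levels of different genes are given as CPM per kilobase (kb) of coding sequence. Ywhag (14-3-3 gamma, ENSMUSG00000051391), an isotype abundant in neurons, stood highest. It had 450 and 174 counts on a coding sequence of 744 nucleotides, or 1639 CPM per kb in replicate 1 (exact 95% counting interval 1491 to 1798) and 2088 in replicate 2 (1790 to 2423). Its mean was 1864 CPM per kb ± 318 (SD, n = 2).

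Ywhae (14-3-3 epsilon, ENSMUSG00000020849) came next. It had 404 and 142 counts on 768 coding nucleotides, or 1426 CPM per kb (1290 to 1572) and 1651 (1391 to 1946), with a mean of 1538 ± 159 (SD, n = 2). Ywhaz (14-3-3 zeta, ENSMUSG00000022285), a broadly made form that binds many phosphorylated clients, had 370 and 100 counts on 738 coding nucleotides. It stood at 1359 CPM per kb (1224 to 1504) and 1210 (984 to 1472), with a mean of 1284 ± 105 (SD, n = 2). Gamma, epsilon and zeta thus stood above the remaining members in replicate 1, while in replicate 2 the interval of zeta overlapped that of beta.

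Ywhab (14-3-3 beta, ENSMUSG00000018326), known as a partner of Raf kinases, had 189 and 85 counts on 741 coding nucleotides. It stood at 691 CPM per kb (596 to 797) and 1024 (818 to 1267), with a mean of 858 ± 236 (SD, n = 2). Ywhah (14-3-3 eta, ENSMUSG00000018965), known for its expression in neurons, had 238 and 63 counts on 741 coding nucleotides, or 870 CPM per kb (763 to 988) and 759 (583 to 971). Its mean was 815 ± 78.6 (SD, n = 2). Beta was lower than eta in replicate 1 and higher in replicate 2.

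Ywhaq (14-3-3 theta, also called tau, ENSMUSG00000076432) was the lowest of the detected members in each library. It had 151 and 34 counts, or 449 CPM per kb (380 to 526) and 333 (231 to 465), with a mean of 391 ± 81.9 (SD, n = 2). The transcript that represents it has a coding length of 912 nucleotides and no annotated 5' untranslated region, unlike the 738 nucleotides of its transcripts with both untranslated regions. On such a transcript the level was 466 CPM per kb, still the lowest, a choice of transcript made after the data were seen.

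**Figure D1:**
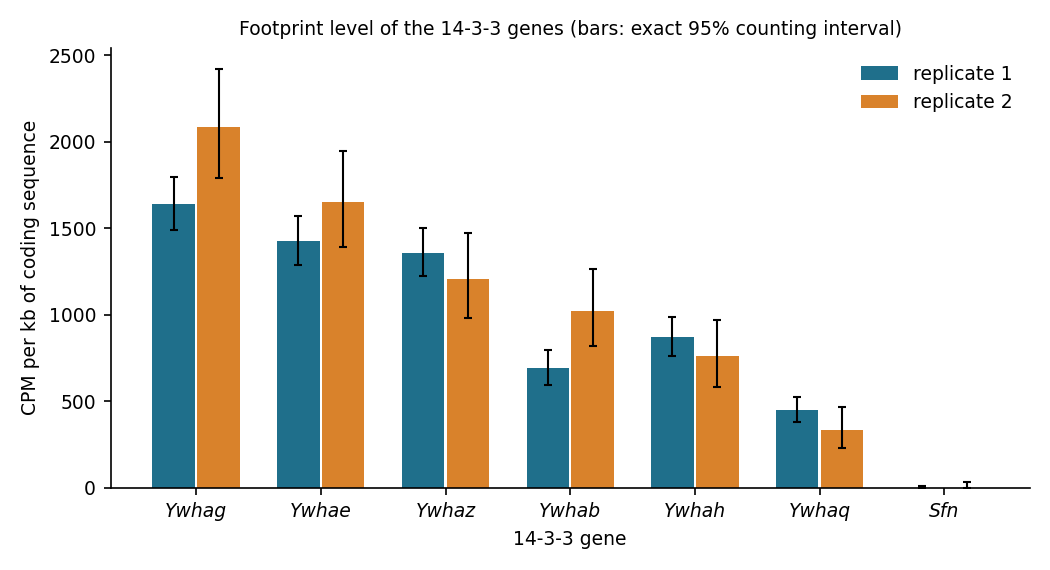
Level of each 14-3-3 gene in CPM per kb of coding sequence, as a bar for each replicate with its exact 95% counting interval (for Sfn, the limit of 3 counts). Ywhag reaches 1639 and 2088, Ywhaq 449 and 333, and Sfn is at 0 in both libraries.

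Sfn (14-3-3 sigma, ENSMUSG00000047281) had 0 counts in both libraries on a coding sequence of 747 nucleotides. A count of 0 allows up to 3 counts, a share of 0.00087% of gene counts in replicate 1 and 0.0025% in replicate 2. With Sfn at that limit of 3 counts per library, Ywhaq at its measured level stood 41.2-fold higher per coding kb in replicate 1 and 9.28-fold higher in replicate 2. The counting error of Ywhaq is not included in these folds. Markers of stratified epithelium, where sigma is known to be made, were low as well: the 8 genes together had 27 and 16 counts, and 18 and 9 of these were of Lor, the cornified envelope protein loricrin. Of the keratin genes, Krt1 had 6 and 2 counts, Krt10 had 2 and 3, Krt5 had 0 and 1, and Krt14 had 1 and 0. The desmosomal cadherin gene Dsg3 had 0 and 1, and Krt15 and Trp63, the transcription factor of basal epithelium, had 0 counts in both libraries.

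The order of the 6 detected members was tested within each library by a 2-sided exact binomial test of the counts of a pair against the share set by their coding lengths, over 15 pairs and both libraries, with Benjamini-Hochberg adjustment over these 30 tests. Of the 15 pairs, 12 differed in both libraries in the same direction. From the highest to the lowest member the level fell 3.65-fold in replicate 1 and 6.27-fold in replicate 2. These folds use the 912 coding nucleotides that represent Ywhaq. On a transcript with both untranslated regions annotated, its mean level was 466 rather than 391 CPM per kb. Folds against theta would then be smaller, and 12 pairs differed in that setting as well. Among neighbours in the order, gamma exceeded epsilon by 1.15 times in replicate 1 (exact 95% interval 1.00 to 1.32, adjusted exact binomial p = 0.048) and by 1.26 times in replicate 2 (1.01 to 1.59, adjusted exact binomial p = 0.043), close to the threshold. Eta exceeded theta by 1.94 times (1.58 to 2.39) and 2.28 times (1.48 to 3.57), both past the threshold (exact binomial test, adjusted p = 3.22e-10 and 0.00013).

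The other 3 neighbouring pairs did not pass in both libraries. Epsilon over zeta was 1.05 in replicate 1 (0.909 to 1.21) and 1.36 in replicate 2 (1.05 to 1.78), and only the second passed the adjusted exact test. Zeta over beta was 1.97 (1.65 to 2.35) and 1.18 (0.876 to 1.60), and only the first passed. Beta over eta was 0.794 (0.653 to 0.965) in replicate 1, past the threshold, and 1.35 (0.963 to 1.90) in replicate 2, which was not. The position of beta against eta is thus not settled by these libraries. Per kb of whole transcript rather than of coding sequence, the order was Ywhae (563), Ywhaz (447), Ywhag (394), Ywhah (342), Ywhab (211) and Ywhaq (162), with eta above beta. Ywhag and Ywhab have annotated 3' untranslated regions of 2586 and 1863 nucleotides.

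Among 4294 protein-coding genes with an annotated coding length and a mean count of 10 or more, Ywhag ranked at place 31 by mean CPM per kb, Ywhae at 43, Ywhaz at 56, Ywhab at 96, Ywhah at 107 and Ywhaq at 346. The median of these 4294 genes was 62.3 CPM per kb. In replicate 1 the places of gamma and epsilon were 31 and 41, and in replicate 2 they were 30 and 41. Zeta moved from place 43 to 68, beta from 141 to 85, eta from 98 to 133 and theta from 292 to 425.

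The genes directly above and below each member were the nearest on either side in mean footprint level per coding kb over 2 libraries. Their distance from the member is the absolute difference in log2 mean level. Ywhag stood between Calm2, which encodes calmodulin, at 1944 CPM per kb ± 169 and Gm9844 at 1844 ± 479 (each SD, n = 2). Ywhae lay between Cox8a, a subunit of cytochrome oxidase, and the histone H4 gene Hist1h4h, at 1550 and 1515 CPM per kb. Ywhaz lay between Ppia, the peptidyl-prolyl isomerase cyclophilin A, at 1287 CPM per kb and Hsbp1, a regulator of heat shock factor, at 1266. These pairs differed from their member by at most 0.061 on the log2 scale.

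Ywhab lay between Lrrc58 and the prostaglandin D synthase gene Ptgds, at 876 and 851 CPM per kb. Ywhah lay between Eid1 and the chaperone gene Hsp90ab1, at 815 and 811 CPM per kb. Ywhaq lay between Fth1, the ferritin heavy chain, at 392 CPM per kb and Mlf2 at 388. Values of histone, Calm2, Ppia, Fth1 and Hsp90ab1 genes are uncertain because near-identical copies can share their fragments.

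The replicates were then compared gene by gene with a 2-sided exact binomial test on the counts, adjusted by Benjamini-Hochberg over all 5436 genes whose mean count was 10 or more. None of the 6 tested members passed an adjusted p of 0.05, while 2 had an unadjusted p under 0.05. Over all genes tested 4.14% were called, and 0.956% of the 4392 protein-coding genes, so that the count of 0 among 6 members was near the background. With edgeR's exact test at a preset biological coefficient of variation of 0.2 the members called were also 0. The members' median log2 ratio of replicate 2 over replicate 1 was 0.022, beside 0.0041 over all genes tested, with 3 of 6 higher in replicate 2.

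With TMM scaling, Ywhab and Ywhag were the members with an unadjusted p under 0.05. On the log2(CPM + 1) scale, the ratio of Ywhab was 0.57 (exact 95% interval 0.18 to 0.94, exact binomial p = 0.0033, adjusted p = 0.074). It had 512 CPM in replicate 1 and 759 CPM in replicate 2. Intervals of the log2 ratios here and below were computed without the added 1. Ywhag had a ratio of 0.35 (0.089 to 0.61, exact binomial p = 0.0079, adjusted p = 0.155), from 1219 to 1554 CPM. Both intervals lay above 0 before adjustment over all genes, but these results depended on the scaling. With library totals, under which the median over all genes tested shifts by -0.20 on the log2 scale, Ywhab stood at 0.36 and Ywhag at 0.14 (exact binomial p = 0.062 and 0.273).

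The remaining ratios had intervals that included 0 with TMM scaling. Ywhae stood at 0.21 (-0.074 to 0.49), Ywhaz at -0.17 (-0.50 to 0.16) and Ywhah at -0.20 (-0.62 to 0.21). Ywhaq stood at -0.43 (-1.01 to 0.11), the lowest of the 6. With library totals Ywhaz stood at -0.37, Ywhah at -0.40 and Ywhaq at -0.64 (exact binomial p = 0.021, 0.048 and 0.019), and no member passed the adjusted test (lowest adjusted p = 0.282). Which members had an unadjusted p under 0.05 thus changed entirely between TMM scaling and library totals. With DESeq2 size factors they were Ywhab and Ywhag, as with TMM (exact binomial p = 0.0034 and 0.0080). Of the family's counts, epsilon made up 22.4% (20.6 to 24.4 by a Wilson interval) in the first library and 23.7% (20.5 to 27.3) in the second. Gamma made up 25.0% (23.0 to 27.0) and 29.1% (25.6 to 32.9), and theta 8.38% (7.19 to 9.75) and 5.69% (4.10 to 7.84). Members had 34 to 174 counts in replicate 2, which sets the width of these intervals.

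**Figure D2:**
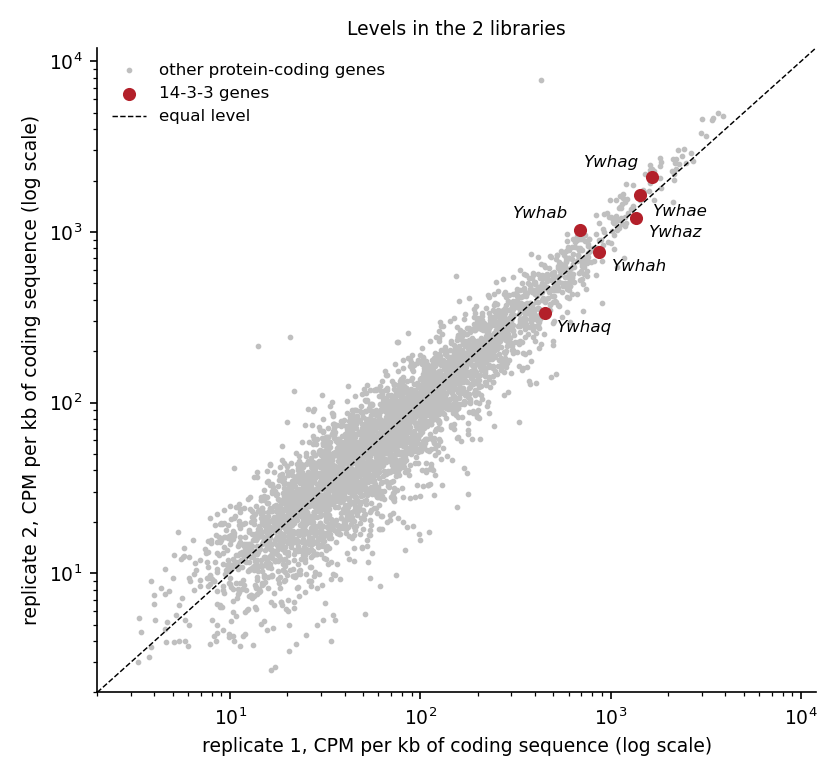
Level of protein-coding genes in replicate 1 (x axis) and replicate 2 (y axis), both in CPM per kb of coding sequence on log scales, for the 4286 of 4294 genes with a count in both libraries. The 6 detected 14-3-3 genes lie in the upper part of the cloud, with Ywhab above the dashed line of equal level and Ywhaq below it.

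Ywhaq was the member with named pseudogenes in the table. Ywhaq-ps3 (ENSMUSG00000080902, listed in the table as Gm11226), a transcribed processed pseudogene of 738 nucleotides, the coding length of the complete Ywhaq transcripts, had 124 counts in replicate 1 and 23 in replicate 2. These equal 82.1% and 67.6% of the counts of Ywhaq. Ywhaq-ps2 (ENSMUSG00000082052), of 643 nucleotides, had 36 and 7 counts, or 23.8% and 20.6% of those of Ywhaq. Per 100 nucleotides of length, Ywhaq-ps3 held 16.8 and 3.12 counts. Ywhaq held 16.6 and 3.73 per 100 coding nucleotides, over the 912 of its representative transcript. With a coding sequence of 738 nucleotides, Ywhaq-201 had 150 and 31 counts and Ywhaq-001 had 144 and 36. Those counts include untranslated regions and were above the 124 and 23 of Ywhaq-ps3.

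The deposited counts do not say which fragments were counted for both Ywhaq and a pseudogene. Footprints of theta and fragments matching its pseudogene copies therefore cannot be told apart, and the level of Ywhaq is uncertain for that reason. No pseudogene of the other members was found by name in the table. Pseudogenes that carry only a number, and fragments shared between the paralogs themselves, could not be searched for without sequences, so sharing was not tested for the other members.

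The 7 genes had 30 annotated transcripts, of which 18 were protein coding and 12 were classed as retained intron, processed transcript or nonsense-mediated decay. Summed over transcripts the members had 5342 and 1655 counts, 2.96 and 2.77 times the counts of their representative transcripts. Isoforms without a complete coding sequence carried many of these. Ywhaz-007, a retained-intron transcript of 924 nucleotides, had 285 and 93 counts, or 77.0% and 93.0% of those of the gene's representative. Ywhae-002, a transcript of 599 nucleotides classed as a target of nonsense-mediated decay, had 243 and 83 counts, or 60.1% and 58.5%. Ywhaq-005, a processed transcript of 703 nucleotides, had 111 and 25 counts, 73.5% in each library. The table does not separate footprints on shared exons from footprints on the part that sets a transcript apart, so these values do not show ribosomes on the non-coding forms.

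Shortened coding isoforms gave a coarse view along the messages. Ywhaz-004, Ywhaz-005 and Ywhaz-006 have coding stretches of 79, 134 and 266 nucleotides, or 10.7%, 18.2% and 36.0% of the full 738. They held 11.1%, 12.7% and 31.6% of the gene's counts in replicate 1, and 15%, 16% and 29% in replicate 2. Counts on these zeta isoforms thus rose with the coding length they hold, with 54 to 314 nucleotides of 5' untranslated region included. From Ywhaz-004 to Ywhaz-005 the rise was small, from 41 to 47 counts in replicate 1 and from 15 to 16 in replicate 2. Ywhab-002, with 477 coding nucleotides or 64.4% of the full length, held 54.0% and 48.2% of the counts. Ywhae-005, with 461 nucleotides, all coding and 60.0% of the full length, held 34.9% and 24.6%. Ywhae-002, of the nonsense-mediated decay class, has fewer coding nucleotides (393, or 51.2%) but held more, 60.1% and 58.5%. That the shorter isoforms lie within the longer ones was taken from their lengths and not from coordinates.

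Isoforms of equal coding length differ in their untranslated regions alone, if their coding sequences are the same. Ywhag-001 has 1865 more nucleotides of 3' untranslated region than Ywhag-005 and 45 more of 5' untranslated region, and it held 8 more counts in replicate 1 and 9 more in replicate 2, or 1.81% and 5.45%. The counts of both gamma transcripts were thus nearly equal, although the table does not show whether they hold the same fragments. Ywhaz-001 is longer than Ywhaz-003 by 28 nucleotides on the 5' side and 135 on the 3' side, yet it had 323 and 90 counts against 370 and 100. The longer transcript of this pair thus had a count lower by 12.7% in replicate 1 and 10% in replicate 2. Ywhaz-002, longer than Ywhaz-001 on both sides, held 29 and 20 more counts, or 8.98% and 22.2%. In the remaining pairs the sign differed between the libraries. Ywhaz-002 held 352 and 110 counts against the 370 and 100 of Ywhaz-003. Ywhaq-001 held 144 and 36 against the 150 and 31 of Ywhaq-201.

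**Figure D3:**
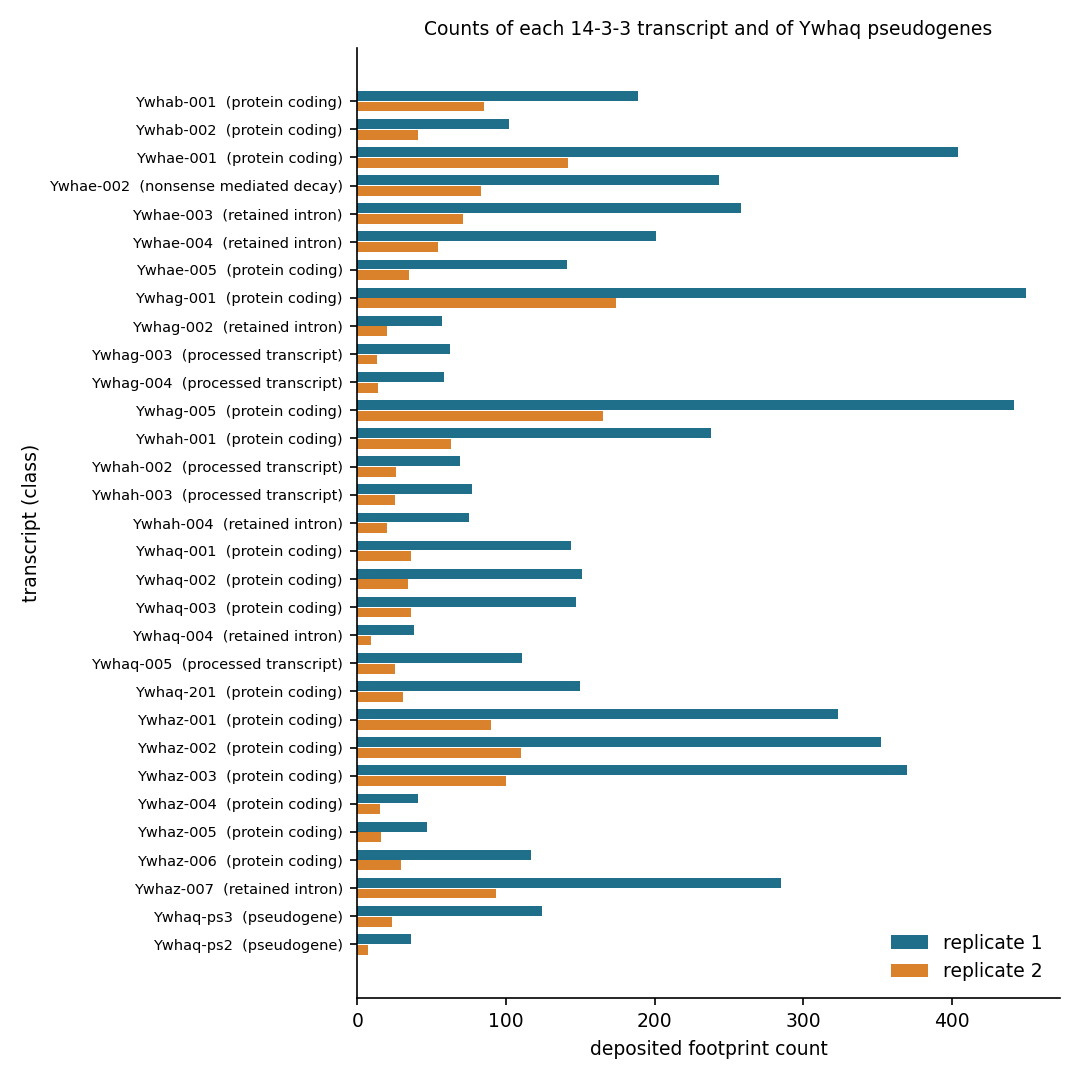
Deposited footprint count of each transcript of the 6 detected genes and of 2 Ywhaq pseudogenes, with a bar for each replicate and the annotated class in brackets. Ywhag-001 and Ywhag-005 have nearly equal bars (450 and 442 in replicate 1), and Ywhaq-ps3 comes close to the Ywhaq transcripts.

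The partners of the family were taken from general knowledge as 57 clients, 21 kinases known to phosphorylate 14-3-3 binding sites and 5 kinases known to phosphorylate 14-3-3 proteins themselves. Clients had lower footprint levels than the adaptors: 23 of 57 clients reached a mean of 10 counts, with a median of 22.7 CPM per kb, beside 1071 for the 6 detected members. Only 1 client, Mapt, stood above the lowest member. Mapt, which encodes the microtubule-binding protein tau, had 282 and 98 counts and 732 CPM per kb ± 70.1 (SD, n = 2). On its isoform with the longest coding sequence the value was 286, below every detected member.

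Ctnnb1, the adhesion and Wnt signalling protein beta-catenin, followed with 207 and 43 counts and 201 CPM per kb ± 53.3 (SD, n = 2). The cell cycle inhibitor gene Cdkn1b and the cell death gene Bax stood at 147 ± 26.6 and 144 ± 58.1 CPM per kb (each SD, n = 2), and Cby1, an antagonist of beta-catenin, had 14 and 3 counts. The neuronal migration client Ndel1 had 9 and 3 counts, and the transmitter synthesis clients Th and Tph2, whose enzymes make dopamine and serotonin, had 7 and 1 and 3 and 0 counts; these 3 genes were named outside the rule, after their values were seen. Aanat, Chek1 and Zfp36, also named in that way, had 0 counts in both libraries.

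Of the 21 kinases of binding sites, 11 reached a mean of 10 counts, with a median of 76.5 CPM per kb. The catalytic subunits of protein kinase A led, with Prkacb at 195 CPM per kb ± 20.8 and Prkaca at 176 ± 26.8 (each SD, n = 2). The calmodulin-dependent kinase genes Camk2a, Camk2b and Camk2g followed at 128, 121 and 94.9 CPM per kb. Of the 5 kinases of 14-3-3 itself, Csnk1a1 (casein kinase 1 alpha) was highest at 170 ± 44.1 CPM per kb (SD, n = 2). The Jun kinase genes Mapk10, Mapk8 and Mapk9 stood at 57.3, 55.9 and 47.6 CPM per kb, and Prkcd (protein kinase C delta) had 7 and 5 counts.

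None of the 38 tested partner genes passed the adjusted exact binomial test between the replicates, beside 0.956% of protein-coding genes and 4.14% of all genes, a count near the background for coding genes, and 2 had an unadjusted p under 0.05. The exact test of edgeR at the preset coefficient of variation called 0 of them as well. The median log2 ratio was 0.041 over 23 clients, -0.085 over 11 kinases of binding sites and 0.62 over 4 kinases of 14-3-3 itself, beside 0.0041 over all genes tested. Those 4 kinases, Csnk1a1, Mapk8, Mapk9 and Mapk10, had between 24 and 72 counts each over both libraries. With scaling by library totals Ctnnb1 passed, at a log2 ratio of -0.75 (adjusted exact binomial p = 0.040).

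**Figure D4:**
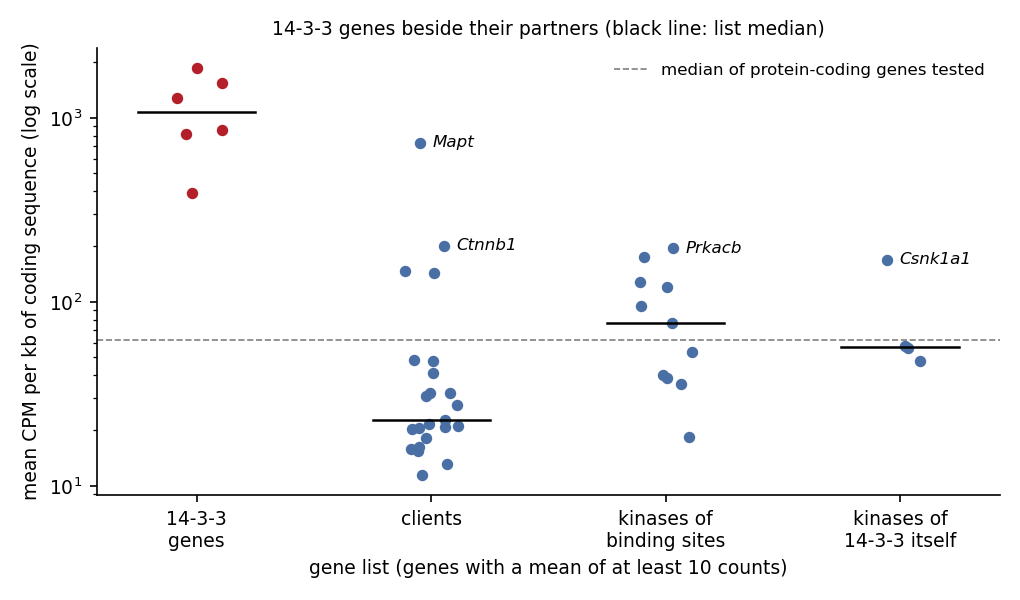
Mean level of each gene whose mean count was 10 or more, in CPM per kb of coding sequence on a log scale, for the 14-3-3 genes and 3 lists of partners. Black lines are list medians (1071, 22.7, 76.5 and 56.6 from left to right) and the dashed line is the median of protein-coding genes, 62.3.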

How the data were processed

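The authors deposited 1 table of footprint counts per transcript, whole numbers that are not normalised, with the lengths of each transcript and its regions. The submitters' processing notes name Trimmomatic 0.36, Bowtie2 2.2.6, SAMtools and GRCm38.p4; the counting tool, annotation release and treatment of multiple matches are not given in the sources used here. Columns were matched to samples on the terms control and RiboLace and the replicate number in their names. Isoforms carried similar counts, so a fragment was taken to be counted for every transcript it matched. That premise was not tested, and the levels, ranks and pair tests on the representative transcripts rest on it. The transcript with the highest summed count stood for a gene, the longer in a tie. CPM came from edgeR 4.0.16 TMM library sizes (factors 1.07 and 0.931) over genes whose mean count was 10 or more. The exact binomial test was checked on simulated data. Partner lists held 83 genes, all matched. The members, lists and tests were chosen with earlier results of these data known. Named were all members and named pseudogenes, the 5 highest genes per kb of each partner list, partner genes past the threshold, and each member's neighbours in level; the epithelial markers were named after their values were seen. Alternatives covered scaling, count filter, isoform choice, coding genes alone, a preset dispersion, length unit and each replicate alone. Genomic coordinates and protein sequences are not used here.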

Additional observations from a re-analysis of the deposited data

How the results depend on the processing

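The use of transcripts with both untranslated regions annotated was chosen after the data were seen. No paired analysis was possible because the samples form 1 group. The 225 genes differing between the libraries (217 higher and 8 lower in replicate 2) became 75 at a mean count of 50 or more, with fewer genes tested, 605 (383 higher, 222 lower) with isoforms summed, 22 among protein-coding genes alone (normalised and adjusted on these, beside the 42 coding genes among the 225), and 131 with the preset coefficient of variation. Library totals gave 176 higher and 23 lower. The members called went from 0 to 2 of 6 with isoforms summed, namely Ywhab and Ywhag (adjusted exact binomial p of 0.0069 and 0.0078). Partner genes went from 0 to 2 of 63 there, where 7.23% of 8366 genes were called, and to 1 of 38 with library totals. A sum repeats fragments that isoforms share if each was counted for every transcript it matched, which was not tested. The family share of 0.511% became 0.662% of protein-coding counts, 0.734% with isoforms summed, and 0.497% to 0.525% on each replicate alone. The 12 differing pairs became 9 per whole transcript and 13 to 14 on each replicate alone, and pairs were not tested with isoforms summed. In that sum, not divided by length, Ywhaz had the most counts (1535 and 453), above Ywhag (1069 and 386). Ywhah stood above Ywhab on replicate 1 alone and per whole transcript. Without the filter, Ywhab, Ywhaq and Ywhaz had an unadjusted p under 0.05, at log2 ratios of 0.39, -0.60 and -0.34, and Ywhag did not, at 0.17 (exact binomial p = 0.183). With isoforms summed the log2 ratios of Ywhah and Ywhaz reversed to 0.0092 and 0.025, and those of Mapt, Camk2a, Camk2g and Mapk8 to -0.014, 0.064, -0.012 and -0.19. On the longest coding isoform those of Mapt, Prkacb, Camk2a, Camk2g and Mapk8 reversed to -0.13, -0.083, 0.12, -0.083 and -1.06. With library totals those of Mapt and Camk2g reversed to -0.011 and -0.13, and without the filter that of Camk2g to -0.095. Apart from the causes named, the cause was not tested. Among the 6 detected members, Ywhaq had the fewest counts on the representative transcripts. With isoforms summed Ywhab had the fewest, at 291 and 126, beside 741 and 171 for Ywhaq.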
